A study of Mus musculus with 12 samples.

Results

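The mitochondrial biogenesis and dynamics genes followed here were *Ppargc1a*, *Ppargc1b*, *Esrra*, *Nrf1*, *Tfam*, *Mfn1*, *Mfn2*, *Opa1*, *Dnm1l* and *Fis1*. They were taken by symbol from the deposited gene table, as a list chosen with earlier results of these data known, and are 10 of its 24532 genes. All 10 passed the filter on low counts, which kept 14038 genes. Poly-A RNA was sequenced from 12 livers of male C57BL/6 mice, with 3 livers in each of 4 groups. All the mice carried the floxed *Ahr* alleles (*Ahr* fl/fl). WT were the littermates without Cre, and *Ahr* HKO carried Cre under the albumin promoter, which is active in hepatocytes. The deletion was aimed at hepatocytes, and the receptor in the other liver cells was not examined here. From 10 to 12 weeks of age, mice received for 5 weeks a Lieber-DeCarli liquid diet with 5% ethanol by volume (36% of calories), or an isocaloric control liquid diet.

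Mitochondria are made from proteins of the nuclear and the mitochondrial genome, so new mitochondria need both to be expressed together. The coactivators PGC-1α and PGC-1β, encoded by *Ppargc1a* and *Ppargc1b*, bind transcription factors such as ERRα (*Esrra*) and NRF1 (*Nrf1*) and raise the expression of nuclear genes for respiration, and TFAM (*Tfam*) packages mitochondrial DNA and starts its transcription. Mitochondria also fuse and divide: the mitofusins (*Mfn1*, *Mfn2*) join outer membranes, OPA1 (*Opa1*) joins inner membranes, and the GTPase DRP1 (*Dnm1l*) constricts the organelle at sites marked by receptors, with FIS1 (*Fis1*) in the outer membrane. In the liver, PGC-1α is also known for its part in gluconeogenesis and fatty acid oxidation during fasting. The comparisons ask how the transcripts of this machinery stood on the ethanol diet, and whether hepatocyte loss of the aryl hydrocarbon receptor altered that. Genes of the mitochondrial genome itself were not analysed here.

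The promoters of *Ppargc1a*, *Esrra*, *Nrf1* and *Mfn2* are shown because these members, of those with a window in the table used, were called in more than 1 comparison. Each sequence is the 250 bases before the first-listed start site in RefSeq (GRCm38.p6, the assembly that mm10 names), read 5′ to 3′ on the strand of the gene. Capitals mark matches, on either strand, to 4 short motifs chosen with these promoters in view: GCGTG, the core that AhR with ARNT recognises; TGACG, the core of the CREB element; AAGGTCA, the element of ERRα; and GCGCANGC, the core for NRF1. The windows lie at chr5:51567726-51567975 (minus strand), chr19:6921809-6922058 (minus strand), chr6:30047738-30047987 (plus strand) and chr4:147904910-147905159 (minus strand), in the order of the lines that follow.
Ppargc1a: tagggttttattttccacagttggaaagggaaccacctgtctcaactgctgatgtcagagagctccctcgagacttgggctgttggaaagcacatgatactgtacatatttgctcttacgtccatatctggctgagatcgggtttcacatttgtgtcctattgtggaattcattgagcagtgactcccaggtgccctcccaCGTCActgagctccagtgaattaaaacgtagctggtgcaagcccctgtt
Esrra: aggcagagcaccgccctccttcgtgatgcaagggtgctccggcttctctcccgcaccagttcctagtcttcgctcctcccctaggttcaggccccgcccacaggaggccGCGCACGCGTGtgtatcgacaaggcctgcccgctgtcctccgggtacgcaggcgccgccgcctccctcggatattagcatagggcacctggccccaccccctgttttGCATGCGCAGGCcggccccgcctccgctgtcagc
Nrf1: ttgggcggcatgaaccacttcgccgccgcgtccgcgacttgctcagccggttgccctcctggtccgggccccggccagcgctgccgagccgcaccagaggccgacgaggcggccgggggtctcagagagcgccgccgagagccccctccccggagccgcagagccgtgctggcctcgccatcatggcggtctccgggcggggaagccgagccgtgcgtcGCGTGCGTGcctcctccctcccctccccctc
Mfn2: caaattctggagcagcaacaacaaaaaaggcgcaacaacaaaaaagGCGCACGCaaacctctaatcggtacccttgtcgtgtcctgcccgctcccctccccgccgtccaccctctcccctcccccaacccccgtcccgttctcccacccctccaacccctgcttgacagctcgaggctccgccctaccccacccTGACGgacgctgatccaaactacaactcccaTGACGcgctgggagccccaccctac

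A window in the RefSeq table was matched to 9 of the 10 members. GCGTG was found in 5 of these 9 windows and in 28.2% of the 32851 windows of the table. TGACG was found in 3 of 9 against 17.8% of all windows, GCGCANGC in 3 of 9 against 8.3%, and AAGGTCA in 0 of 9 against 4.08%. *Ppargc1a* held 1 match, the CREB core, whose first base lies 49 bases before the start. *Esrra* held 3 matches to the NRF1 core, of which 1 overlaps the 2 matches to GCGTG, and *Mfn2* held all of GCGTG, the CREB core and the NRF1 core, the first and last overlapping. *Nrf1* held 2 overlapping matches to GCGTG and no match to its own product's core. A match is a description of the letters, and nothing about binding was measured.

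Each library held 46306518 to 74336255 reads counted on genes, and the lowest count of any member was 60, for *Ppargc1b* in liver 3 of *Ahr* HKO on the control diet. The gene-level counts pool the deleted exon of *Ahr* with the rest of the gene and cannot show the deletion. On the control diet *Ahr* reads were higher in the libraries labelled *Ahr* HKO (41.3 to 65.5 CPM, counts scaled to library size) than in those labelled WT (16.6 to 20.1 CPM), and the classical AhR targets did not share 1 direction. *Cyp1a2* was lower in *Ahr* HKO on both diets (90.7 to 258 against 398 to 617 CPM on the control diet, 629 to 684 against 992 to 1212 CPM on ethanol). *Cyp1a1* was higher in *Ahr* HKO on the control diet (0.444 to 0.898 against 0.204 to 0.349 CPM, adjusted *P* = 0.0453), and its genotype groups overlapped on ethanol (1.03 to 1.67 and 1.02 to 1.66 CPM). It was near the floor in WT on the control diet, where 3 counts equal 0.0536 to 0.0655 CPM. Directions between genotypes therefore rest on the labels. Hepatocyte markers summed to 65891 to 106897 CPM over all livers, so the tissue label holds. In bulk liver, fewer cells of a type and less RNA per cell cannot be told apart.

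Markers of other cell types differed between the groups, and their part in the member results was not tested. The 5 Kupffer cell markers summed to 281 to 364 CPM in WT on the control diet, 248 to 657 on ethanol, 249 to 729 in *Ahr* HKO on the control diet and 152 to 191 in *Ahr* HKO on ethanol. All 5 fell on ethanol in *Ahr* HKO, with 2 of 5 leukocyte, 2 of 5 endothelial and 1 of 5 cholangiocyte markers, while no stellate cell marker of 5 was called there. In that comparison 1 of 5 hepatocyte markers rose, and of all tested genes 15.9% fell and 14.9% rose. Between genotypes on the control diet 0 of 5 Kupffer cell markers were called with edgeR and 1 had an unadjusted *P* under 0.05, for which the share of all genes was not counted. In this comparison 1 hepatocyte, 1 leukocyte, 1 endothelial and 1 cholangiocyte marker were higher in *Ahr* HKO, and 1 leukocyte and 1 stellate cell marker lower. Of all tested genes 15.4% were higher and 14.2% lower. For ethanol in WT 2 of 5 stellate cell markers rose and 1 of 5 hepatocyte markers fell, and none of the other lists was called. There 4.84% of all tested genes rose and 4.63% fell. The 5 cholangiocyte markers summed to 44.5 to 476 CPM in *Ahr* HKO on the control diet, against 37.1 to 67.1 CPM on ethanol. The leukocyte sums were 13.5 to 32.0 and 5.09 to 7.61 CPM in these groups, with *Ms4a1* at or under 3 counts in *Ahr* HKO on ethanol. Of the defining markers of the other lists, none was at or under 3 counts throughout a group.

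**Figure D1:**
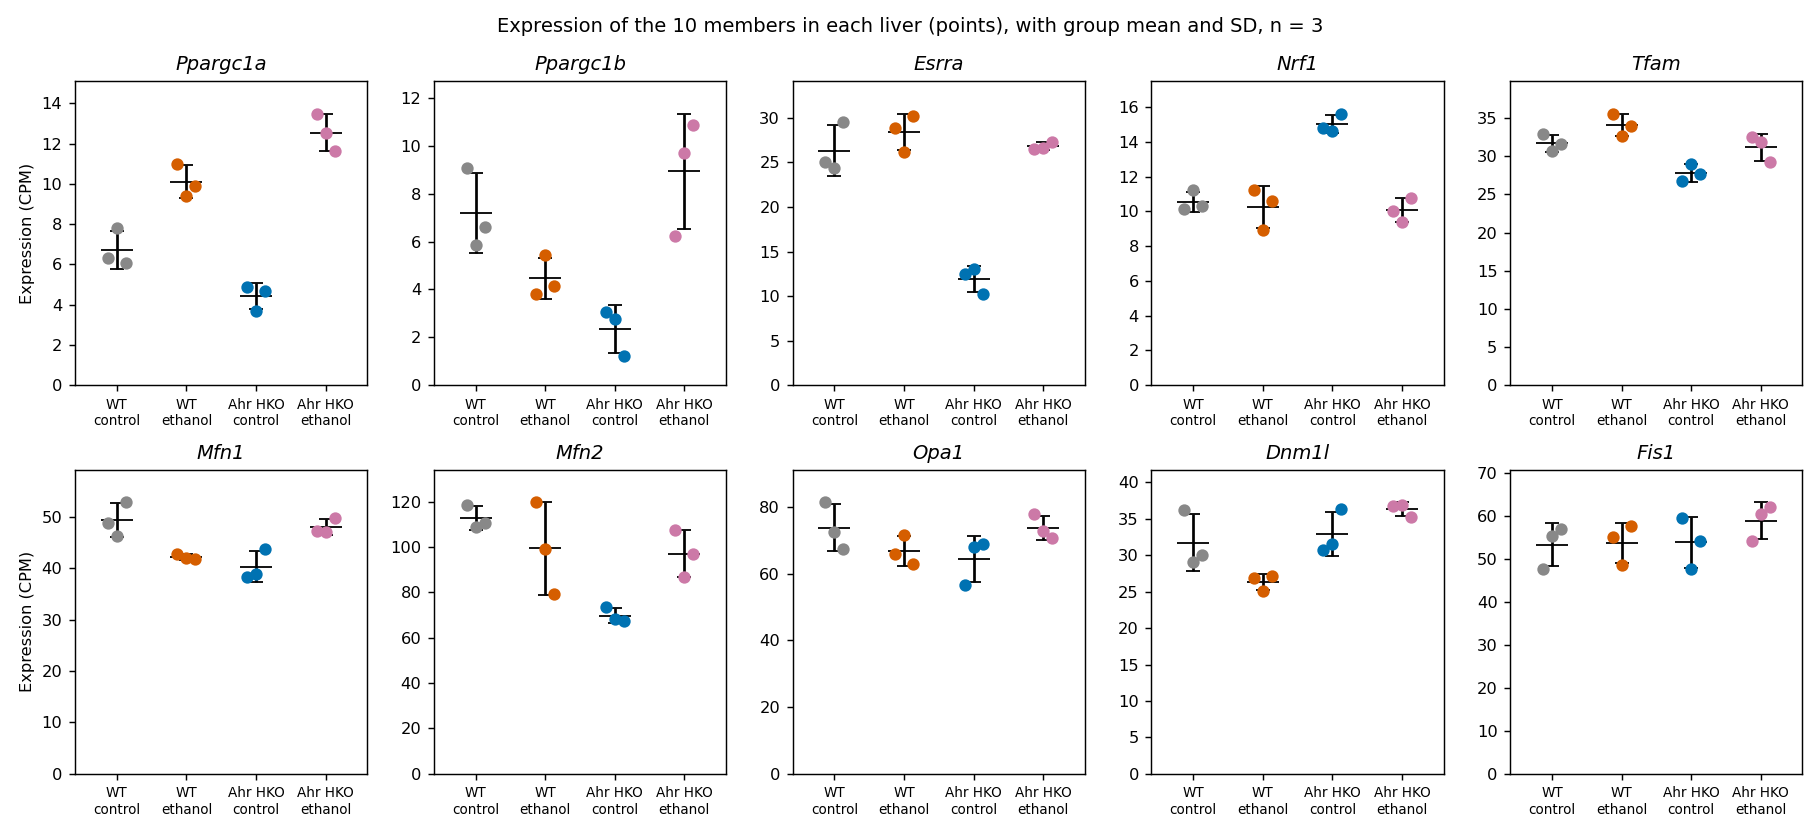
Expression of the 10 members in CPM (y axis, from 0) for the 4 groups (x axis). Points are livers, and the bars give the mean and SD of 3 livers. The *Ahr* HKO livers on the control diet had the lowest mean of the 4 groups for *Ppargc1a*, *Ppargc1b*, *Esrra*, *Tfam*, *Mfn1*, *Mfn2* and *Opa1*, and the highest for *Nrf1*.

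*Ppargc1a*, the gene of PGC-1α, was higher on the ethanol diet in both genotypes. Its CPM in WT was 6.31, 7.80 and 6.07 on the control diet and 11.0, 9.40 and 9.92 on ethanol. In *Ahr* HKO it was 4.87, 3.67 and 4.68 on the control diet and 13.5, 12.5 and 11.6 on ethanol. The diet groups did not overlap in either genotype, and the *Ahr* HKO livers held both the lowest and the highest values. *Ppargc1a* rose 1.51-fold in WT (log2 FC 0.60 ± 0.14 SE, adjusted *P* = 0.0417, edgeR quasi-likelihood test) and 2.85-fold in *Ahr* HKO (log2 FC 1.51 ± 0.15, adjusted *P* = 0.00182). On the control diet it was 1.52-fold lower in *Ahr* HKO than in WT (log2 FC -0.61 ± 0.17, adjusted *P* = 0.0351). The rise in *Ahr* HKO exceeded that in WT by 0.93 ± 0.20 on the log2 scale (interaction, adjusted *P* = 0.00852). The WT call was lost without any 1 of the 6 WT livers (log2 FC 0.51 to 0.72, adjusted *P* 0.0583 to 0.133). The genotype call on the control diet was lost without any 1 of its livers other than *Ahr* HKO liver 1 (adjusted *P* 0.0525 to 0.115). Neither of these calls was made by limma on quantile-normalized log2(FPKM + 1), where the log2 FCs were 0.34 (adjusted *P* = 0.0689) and -0.24 (adjusted *P* = 0.0958). Over all other settings the adjusted *P* was 0.00598 to 0.105 for the former and 0.00753 to 0.0958 for the latter.

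*Ppargc1b*, the gene of PGC-1β, had the widest range of the members as a ratio, 8.98-fold from 1.21 to 10.9 CPM. Its CPM in WT was 9.06, 5.87 and 6.62 on the control diet and 3.81, 5.44 and 4.12 on ethanol. In *Ahr* HKO it was 3.05, 2.76 and 1.21 on the control diet and 6.24, 9.71 and 10.9 on ethanol. The diet groups thus stood apart in opposite directions in the 2 genotypes. The rise in *Ahr* HKO was 3.80-fold (log2 FC 1.93 ± 0.36, adjusted *P* = 0.00920), whereas the value in WT, -0.67 ± 0.22, did not pass the test with edgeR (adjusted *P* = 0.107) and passed with DESeq2 (adjusted *P* = 0.0428, with 0.0428 to 0.215 over all other settings). The difference between the diet effects was 2.61 ± 0.46 (interaction, adjusted *P* = 0.00322). On the control diet *Ppargc1b* was 3.05-fold lower in *Ahr* HKO than in WT (adjusted *P* = 0.0129). On ethanol its log2 FC between genotypes was 1.00 ± 0.25 (adjusted *P* = 0.0994), and DESeq2 called it (adjusted *P* = 0.00726, with 0.00726 to 0.129 over all other settings).

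The order of the 2 coactivators varied between the groups. Their FPKM (fragments scaled to gene length and library size) stood in a ratio of *Ppargc1a* to *Ppargc1b* of 0.393 to 0.750 in WT on the control diet and 0.976 to 1.63 in WT on ethanol, ranges that did not overlap. In *Ahr* HKO the ratio was 0.748 to 2.22 on the control diet and 0.604 to 1.22 on ethanol, which overlapped. The highest ratio, 2.22, was that of the *Ahr* HKO liver with the lowest *Ppargc1b*. These ratios are given as a description and were not tested.

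*Esrra*, the gene of the orphan nuclear receptor ERRα, was low in 1 group. Its CPM was 12.5, 13.1 and 10.2 in *Ahr* HKO on the control diet. It was 25.1, 24.3 and 29.6 in WT on the control diet, 28.9, 26.2 and 30.2 in WT on ethanol, and 26.5, 26.7 and 27.4 in *Ahr* HKO on ethanol. The first group lay below every other liver, and the other 3 groups overlapped. *Esrra* was 2.20-fold lower in *Ahr* HKO than in WT on the control diet (log2 FC -1.14 ± 0.13, adjusted *P* = 0.00159) and rose 2.25-fold on ethanol in *Ahr* HKO (log2 FC 1.17 ± 0.11, adjusted *P* = 0.00149). In WT the diet effect was 0.12 (95% CI -0.13 to 0.37), and on ethanol the genotypes differed by -0.08 (95% CI -0.29 to 0.12). The interaction was 1.06 ± 0.16 (adjusted *P* = 0.00150), and it was called in each fit that left out 1 of the 12 livers, with values of 0.96 to 1.13.

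*Nrf1*, the gene of nuclear respiratory factor NRF1, took the opposite course. Its CPM was 14.8, 14.6 and 15.6 in *Ahr* HKO on the control diet. It was 10.1, 11.2 and 10.3 in WT on the control diet, 11.3, 8.90 and 10.6 in WT on ethanol, and 10.04, 9.37 and 10.8 in *Ahr* HKO on ethanol. Here the *Ahr* HKO control group lay above every other liver. *Nrf1* was 1.43-fold higher in *Ahr* HKO than in WT on the control diet (log2 FC 0.51 ± 0.10, adjusted *P* = 0.00829) and fell by 0.58 ± 0.11 on the log2 scale on ethanol in *Ahr* HKO (adjusted *P* = 0.00835). In WT the diet effect was -0.03 (95% CI -0.31 to 0.25). The interaction of -0.54 ± 0.15 (adjusted *P* = 0.0274) was lost in 6 of 12 fits without 1 liver (-0.47 to -0.54, adjusted *P* 0.0504 to 0.0635), which left out WT control livers 1 and 3, WT ethanol liver 1, *Ahr* HKO control liver 3 and *Ahr* HKO ethanol livers 1 and 2. With limma on quantile-normalized log2(FPKM + 1) it was -0.37 (adjusted *P* = 0.0523), and the adjusted *P* was 0.00188 to 0.0826 over all other settings.

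*Tfam*, whose product coats mitochondrial DNA, varied less than the genes of its regulators. Over all 12 livers it ranged from 26.8 to 35.6 CPM. The means were 31.7 ± 1.11 (SD, n = 3) in WT on the control diet, 34.1 ± 1.46 in WT on ethanol, 27.8 ± 1.13 in *Ahr* HKO on the control diet and 31.2 ± 1.72 in *Ahr* HKO on ethanol. The *Ahr* HKO control livers lay below the WT control livers, but no comparison passed the test with edgeR. The log2 FC was 0.12 (95% CI -0.07 to 0.30) for ethanol in WT, 0.17 (95% CI -0.04 to 0.37) for ethanol in *Ahr* HKO, and -0.19 (95% CI -0.38 to 0.005) between genotypes on the control diet. The last of these passed with limma on quantile-normalized log2(FPKM + 1), at -0.21 (adjusted *P* = 0.0467, with 0.0467 to 0.255 over all other settings). The interaction was 0.06 (95% CI -0.18 to 0.30).

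Of the fusion genes, *Mfn2* was called and its paralog *Mfn1* was not in the comparisons of 2 groups. The CPM of *Mfn2* in WT livers was 119, 109 and 111 with the control diet, and 120, 99.3 and 79.1 with ethanol. In *Ahr* HKO livers it was 73.6, 68.3 and 67.5 with the control diet, and 108, 86.9 and 96.8 with ethanol. The *Ahr* HKO control livers were again the lowest of all, and the WT ethanol livers the most spread. *Mfn2* was 1.61-fold lower in *Ahr* HKO than in WT on the control diet (log2 FC -0.69 ± 0.09, adjusted *P* = 0.00254) and rose 1.39-fold on ethanol in *Ahr* HKO (log2 FC 0.48 ± 0.11, adjusted *P* = 0.0200). The latter call was lost without *Ahr* HKO control liver 2 or ethanol liver 1 or 3 (0.46, 0.40 and 0.48, adjusted *P* 0.0514 to 0.0628). In WT the diet effect was -0.17 (95% CI -0.52 to 0.18). The interaction was 0.66 ± 0.19 (adjusted *P* = 0.0321), and 8 of the 12 fits without 1 liver lost it, those without any WT control liver, WT ethanol liver 2, *Ahr* HKO control liver 2 or 3 or *Ahr* HKO ethanol liver 1 or 3 (0.58 to 0.68, adjusted *P* 0.0547 to 0.0716). Without quantile normalization limma gave 0.41 (adjusted *P* = 0.116, with 0.0107 to 0.116 over all other settings).

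*Mfn1* ranged from 46.3 to 52.8 CPM in WT on the control diet, 41.8 to 42.8 in WT on ethanol, 38.3 to 43.8 in *Ahr* HKO on the control diet and 47.0 to 49.8 in *Ahr* HKO on ethanol. The diet groups did not overlap in either genotype and lay in opposite order. Its diet effects, -0.21 ± 0.08 in WT (adjusted *P* = 0.160) and 0.25 ± 0.10 in *Ahr* HKO (adjusted *P* = 0.0857), did not pass the test on their own with edgeR on the 6 libraries, and the latter passed with all 12 libraries in 1 fit (adjusted *P* = 0.0302, with 0.0302 to 0.132 over all other settings). Their difference of 0.48 ± 0.11 passed (interaction, adjusted *P* = 0.0136). Without quantile normalization limma gave a difference of 0.21 (adjusted *P* = 0.126, with 0.00150 to 0.126 over all other settings). Between genotypes on the control diet the log2 FC was -0.29 ± 0.10 (adjusted *P* = 0.0680), and it was called without *Ahr* HKO control liver 3 (-0.35, adjusted *P* = 0.0459) and under 4 other settings, among them upper-quartile scaling (-0.36, adjusted *P* = 0.0295) and all 12 libraries in 1 fit (-0.29, adjusted *P* = 0.0181). Its adjusted *P* was 0.0181 to 0.106 over all other settings.

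*Opa1*, the inner membrane GTPase, passed no test. Its range was 67.5 to 81.4 CPM in WT on the control diet, 62.8 to 71.7 in WT on ethanol, 56.5 to 68.9 in *Ahr* HKO on the control diet and 70.6 to 77.8 in *Ahr* HKO on ethanol. The diet groups overlapped in WT and stood apart in *Ahr* HKO. Its diet effects were -0.13 (95% CI -0.38 to 0.12) in WT and 0.19 (95% CI -0.07 to 0.46) in *Ahr* HKO, with an interaction of 0.34 (95% CI 0.01 to 0.66, adjusted *P* = 0.124).

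Of the fission genes, *Dnm1l* (DRP1) was lowest in WT on ethanol. Its CPM was 36.2, 29.1 and 30.0 in WT on the control diet and 26.9, 25.1 and 27.1 in WT on ethanol. In *Ahr* HKO it was 30.8, 31.6 and 36.4 on the control diet and 36.8, 36.9 and 35.2 on ethanol. With edgeR the diet effect was -0.26 ± 0.11 in WT (adjusted *P* = 0.188) and 0.14 ± 0.10 in *Ahr* HKO (adjusted *P* = 0.313), and neither was called. Between genotypes on the control diet the log2 FC was 0.06 ± 0.12 (adjusted *P* = 0.764). On ethanol the genotypes did not overlap. There the log2 FC was 0.46 ± 0.08, which did not pass with edgeR (adjusted *P* = 0.0530) and passed with DESeq2 (adjusted *P* = 2.94e-05) and with all 12 libraries in 1 fit (adjusted *P* = 0.0336). Over all other settings the adjusted *P* was 2.94e-05 to 0.105. The interaction was 0.41 ± 0.14 (adjusted *P* = 0.0586), and it was called without *Ahr* HKO control liver 3 (0.49, adjusted *P* = 0.0342), with DESeq2 (0.40, adjusted *P* = 0.0462) and with upper-quartile scaling (0.43, adjusted *P* = 0.0390). Limma on quantile-normalized log2(FPKM + 1) also called it (0.39, adjusted *P* = 0.0414), as it did on genes above 0 in every library (0.39, adjusted *P* = 0.0409). The adjusted *P* of the interaction was 0.0390 to 0.374 over all other settings.

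*Fis1*, the outer membrane anchor, held the smallest ratio of the highest to the lowest group mean, 1.105. These were 53.4 ± 4.97, 53.8 ± 4.66, 53.9 ± 5.94 and 59.0 ± 4.25 CPM (SD, n = 3) in WT on the control diet, WT on ethanol, *Ahr* HKO on the control diet and *Ahr* HKO on ethanol. The livers spanned 47.7 to 62.3 CPM, and each pair of groups compared overlapped. The diet effects were 0.02 (95% CI -0.22 to 0.27) in WT and 0.13 (95% CI -0.15 to 0.41) in *Ahr* HKO, and their direction depended on the scaling.

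**Figure D2:**
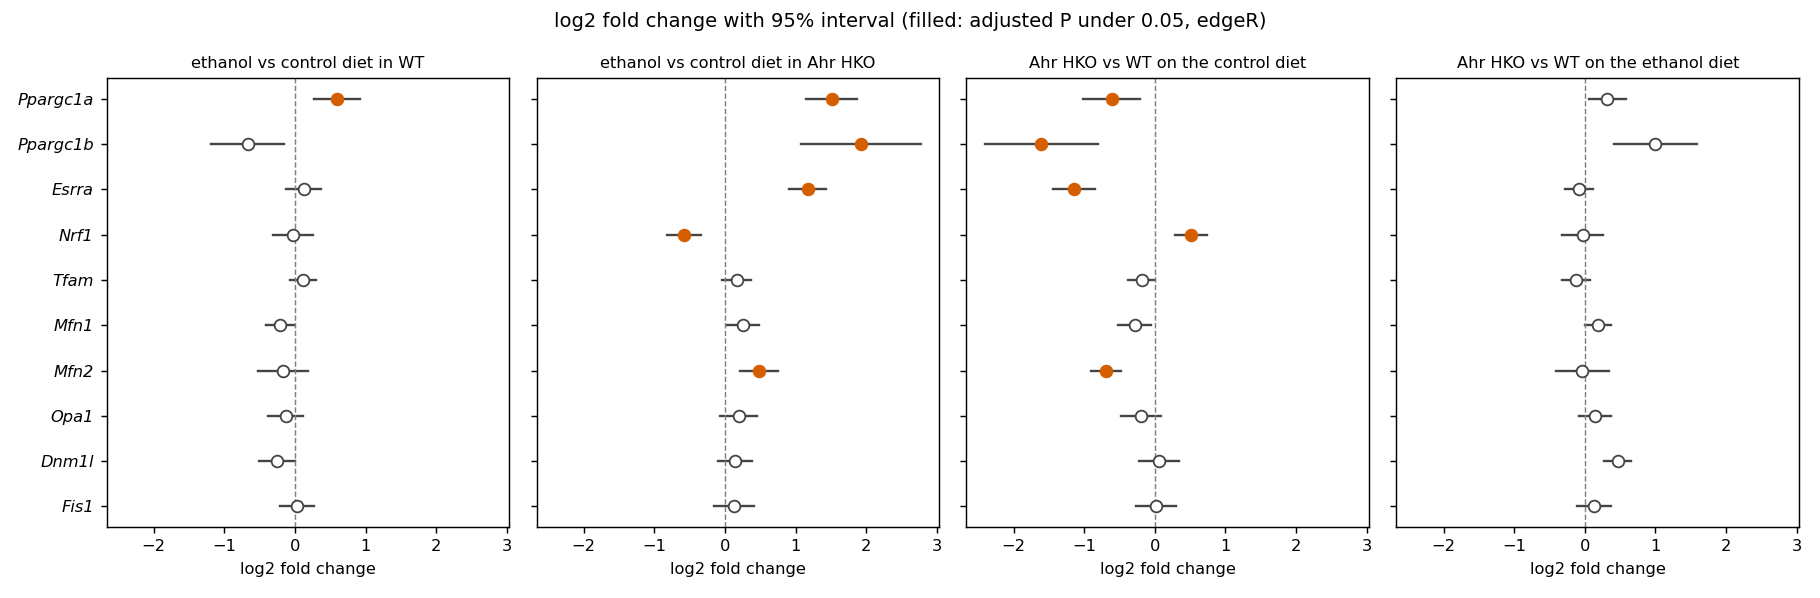
log2 FC (x axis) of the 10 members (y axis) in the 4 comparisons of a pair of groups. Points are estimates with their 95% confidence intervals, and filled points have an adjusted *P* under 0.05. A single member is filled for ethanol in WT, 5 are filled for ethanol in *Ahr* HKO and for genotype on the control diet, and 0 for genotype on the ethanol diet.

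By comparison, 1 of the 10 members was called for ethanol in WT, *Ppargc1a*, which rose. Among all tested genes 4.84% rose and 4.63% fell there. The CPM ranges of 4 members did not overlap between the diets, against 32.9% of all tested genes. The members' median log2 FC was -0.08, beside 0.03 over all genes.

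For ethanol in *Ahr* HKO, 4 members rose (*Ppargc1a*, *Ppargc1b*, *Esrra* and *Mfn2*) and *Nrf1* fell, against 14.9% and 15.9% of all tested genes. The ranges of 8 members did not overlap, 7 of them higher on ethanol, against 49.8% of all genes. The median log2 FC was 0.22 for the members and -0.02 over all genes.

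Between genotypes on the control diet, *Nrf1* was higher in *Ahr* HKO and *Ppargc1a*, *Ppargc1b*, *Esrra* and *Mfn2* were lower, against 15.4% and 14.2% of all tested genes. The ranges of 7 members did not overlap, against 47.3% of all genes, and the median log2 FC was -0.24 for the members and -0.001 over all genes. This comparison shares its 3 *Ahr* HKO control livers with that of ethanol in *Ahr* HKO, where their level enters with opposite sign, so the values of the 2 comparisons are only set side by side.

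Between genotypes on the ethanol diet, edgeR called 0 members, against 0.712% of genes higher and 0.392% lower in *Ahr* HKO. DESeq2 called 2 members, *Ppargc1b* and *Dnm1l*, and 1511 of all 14038 tested genes. An unadjusted *P* under 0.05 was reached by 4 members (*Ppargc1a*, *Ppargc1b*, *Mfn1* and *Dnm1l*, each with a higher mean in *Ahr* HKO). The share of all genes at that unadjusted threshold was not counted. The ranges of 5 members did not overlap, against 27.9% of all genes. The 5 were these 4 and *Tfam*, which was lower in each *Ahr* HKO liver. Markers of other cell types stood apart here too, and their part was not tested. None of the 6 marker lists held a call with edgeR, but an unadjusted *P* under 0.05 was reached by 4 of 5 Kupffer cell markers (median log2 FC of the list -1.43), 4 of 5 leukocyte markers (-1.65) and 4 of 5 hepatocyte markers (0.48), and by 1 of 5 endothelial, 3 of 5 stellate cell and 1 of 5 cholangiocyte markers.

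The interaction, that is the diet effect in *Ahr* HKO minus the diet effect in WT, was called for 6 members. It was positive for *Ppargc1a*, *Ppargc1b*, *Esrra*, *Mfn1* and *Mfn2* and negative for *Nrf1*, against 11.2% of all tested genes with a positive and 11.1% with a negative call. The median of the members was 0.45, beside -0.03 over all genes.

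**Figure D3:**
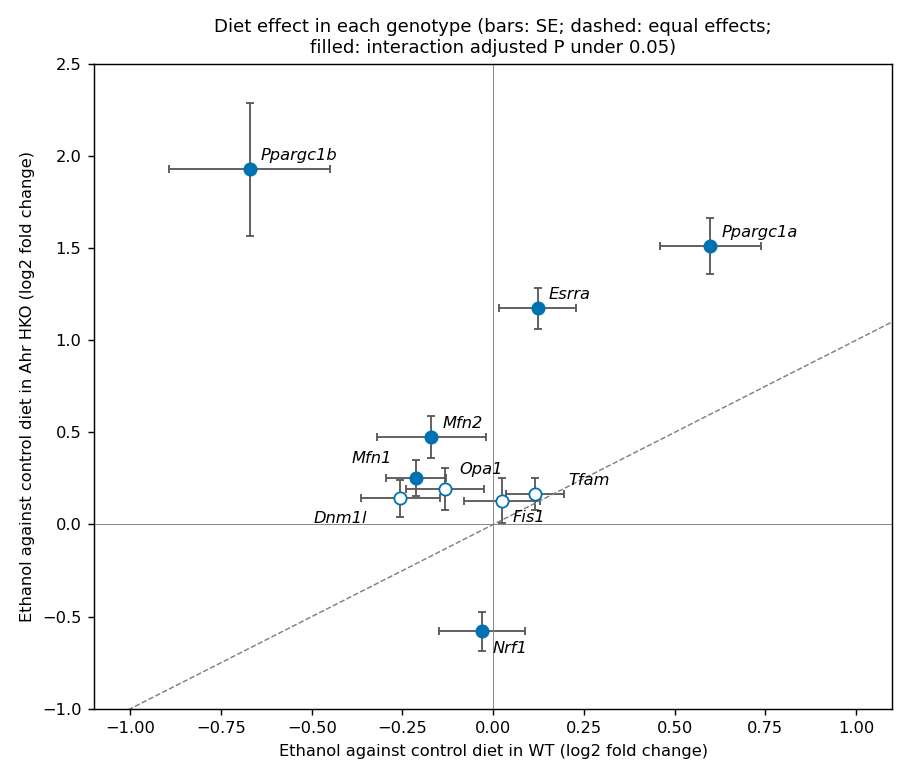
Diet effect in WT (x axis, log2 FC of ethanol against control) and in *Ahr* HKO (y axis) for each member, with SE bars. The dashed line marks equal effects and filled points have an interaction with an adjusted *P* under 0.05. *Ppargc1b* lies at -0.67 and 1.93, *Esrra* at 0.12 and 1.17 and *Nrf1* at -0.03 and -0.58, while *Tfam* and *Fis1* lie near the line.

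Levels between genes were compared by FPKM. *Fis1* was the highest member in every group, with means of 63.0 to 70.8 FPKM, followed by *Mfn2* with 14.9 to 23.8 FPKM. The coactivators were the lowest, with means of 0.649 to 1.77 FPKM for *Ppargc1a* and 0.619 to 2.22 FPKM for *Ppargc1b*. In WT on the control diet the order was *Fis1*, *Mfn2*, *Opa1*, *Esrra*, *Mfn1*, *Tfam*, *Dnm1l*, *Nrf1*, *Ppargc1b* and *Ppargc1a*. The ranges of *Opa1* and *Esrra*, of *Esrra* and *Mfn1* and of *Tfam* and *Dnm1l* overlapped, and the other neighbours stood apart. The place of *Esrra* moved from the fourth (11.1 ± 1.29 FPKM) to the seventh in *Ahr* HKO on the control diet (5.12 ± 0.90 FPKM), where its range overlapped that of *Nrf1* (4.65 ± 0.16 FPKM). The order of the coactivators was reversed in WT on ethanol and in *Ahr* HKO on the control diet, but their ranges overlapped in both groups.

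**Figure D4:**
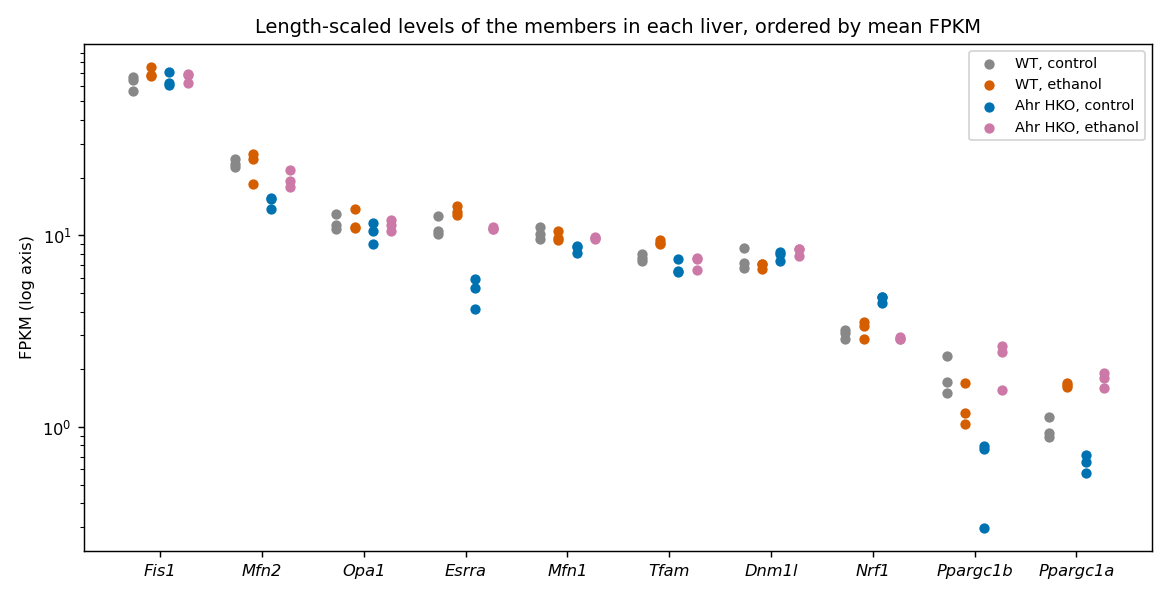
FPKM (log y axis) of each member (x axis, ordered by the mean over all groups), with 1 point per liver and colours for the 4 groups. *Fis1* lies between 56.6 and 75.7 FPKM and the coactivators below 2.64 FPKM, and the *Ahr* HKO control livers stand lowest for *Esrra*, *Mfn2*, *Ppargc1b* and *Ppargc1a*.

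The mitofusins and DRP1 were also set against each other by FPKM. *Mfn2* over *Mfn1* was 2.12 to 2.46 in WT on the control diet, 1.91 to 2.83 in WT on ethanol, 1.56 to 1.94 in *Ahr* HKO on the control diet and 1.87 to 2.297 in *Ahr* HKO on ethanol. The sum of *Mfn1*, *Mfn2* and *Opa1* over *Dnm1l* was 5.65 to 6.48, 5.57 to 7.07, 4.02 to 4.48 and 4.57 to 5.17 in the same order of groups. This ratio was lower in every *Ahr* HKO liver than in every WT liver, within each diet. How often ratios of other genes stand apart in this way was not counted. On the control diet the log2 FCs between genotypes were -0.29 for *Mfn1*, -0.69 for *Mfn2*, -0.19 for *Opa1* and 0.06 for *Dnm1l*. On ethanol they were 0.19, -0.03, 0.14 and 0.46 in the same order, and edgeR called no member there. The ratio is a description and was not tested.

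The wider machinery was read from 75 genes of 7 lists, of which 73 were tested. For ethanol in WT 2 rose and 3 fell, against 4.84% and 4.63% of all tested genes. *Pdk4*, a target of the coactivators whose product restrains pyruvate dehydrogenase, rose 5.58-fold, from 2.87 to 3.05 CPM to 11.9 to 22.2 CPM (log2 FC 2.48 ± 0.24, adjusted *P* = 0.00297). *Tomm20*, an import receptor of the outer membrane, rose 1.37-fold (adjusted *P* = 0.0446). Of the 14 genes for mitochondrial DNA replication and transcription, *Polg*, the catalytic subunit of the DNA polymerase, fell by 0.51 ± 0.09 (adjusted *P* = 0.0195) and *Tefm*, an elongation factor, fell by 0.54 ± 0.12 (adjusted *P* = 0.0330) on the log2 scale. *Pld6*, a phospholipase of the outer membrane, fell by 1.29 ± 0.31 (adjusted *P* = 0.0445). The lists of nuclear regulators, fission factors and the cristae organizing complex held 0 calls with edgeR, and 6 of 11, 2 of 12 and 2 of 7 of their genes had an unadjusted *P* under 0.05. The share of all tested genes at that unadjusted threshold was not counted, so these numbers have nothing to be read against.

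For ethanol in *Ahr* HKO 12 of the 73 rose and 4 fell, against 14.9% and 15.9% of all tested genes, so the share that rose was near that of all genes. Among 11 nuclear regulators 3 rose and 2 fell, and the 4 with the smallest adjusted *P* are named. *Sirt3*, a mitochondrial deacetylase, rose 1.72-fold (adjusted *P* = 0.00410) and *Tfeb*, a regulator of lysosome genes, rose 1.56-fold (adjusted *P* = 0.0132). *Pprc1*, the PGC-1-related coactivator, was 2.95-fold lower (log2 FC -1.56 ± 0.19, adjusted *P* = 0.00284) and *Yy1* 1.33-fold lower (adjusted *P* = 0.0106). *Polg2*, the accessory subunit of the mitochondrial DNA polymerase, rose 2.16-fold (adjusted *P* = 0.0122), and *Tefm* fell by 0.58 ± 0.16 (adjusted *P* = 0.0316). The fission factors *Mtfp1* and *Mief2*, the latter a receptor of DRP1, rose 1.75-fold and 1.80-fold. *Immt* and *Chchd3*, core subunits of the cristae organizing complex, rose 1.33-fold and 1.32-fold, and 6 of the 7 genes of that list had a log2 FC above 0. In the import list *Timm50* and *Timm44* rose 1.46-fold and 1.35-fold and *Timm17a* was 1.33-fold lower. Of the 9 targets of the coactivators and of ERRα, *Vdac1*, the outer membrane channel, rose 1.52-fold and *Pdk4* 1.96-fold. The list for fusion and inner membrane proteolysis held 0 calls of 10 with edgeR and 3 at an unadjusted *P* under 0.05, for which the share of all genes was not counted.

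Between genotypes on the control diet 6 of the 73 were higher in *Ahr* HKO and 10 lower, against 15.4% and 14.2% of all tested genes, so neither share stood above that of all genes. Of 11 nuclear regulators 4 were higher and 2 lower, and the 4 with the smallest adjusted *P* are named. *Pprc1* was 34.4, 38.8 and 48.0 CPM in the *Ahr* HKO livers, against 13.4 to 14.7 CPM in the WT livers, a 2.88-fold difference (adjusted *P* = 0.000983). *Sirt3* was 1.80-fold lower (adjusted *P* = 0.00195), and *Polg2* was 2.43-fold lower, at 1.84 to 2.99 CPM against 5.61 to 6.69 CPM (adjusted *P* = 0.00575). *Pprc1* thus stood with *Nrf1*, and *Sirt3* and *Polg2* with *Esrra*, in the direction of the difference. *Yy1* and *Gabpb1*, a subunit of the factor also called NRF2, were 1.40-fold and 1.49-fold higher, and *Mgme1*, a mitochondrial exonuclease, was 0.58 ± 0.15 higher on the log2 scale. *Mief2* and *Mtfp1* were 1.68-fold and 1.41-fold lower, *Oma1*, a protease that cleaves OPA1, 1.38-fold lower and *Slc25a46* 0.38 ± 0.10 lower on the log2 scale. *Timm44* and *Timm50* were 1.35-fold and 1.23-fold lower. *Vdac1* was 0.37 ± 0.11 lower on the log2 scale and *Pdk4* 1.97-fold higher, so the called targets did not share 1 direction. The list of 7 for the cristae complex held 0 calls with edgeR and 1 at an unadjusted *P* under 0.05, for which the share of all genes was not counted.

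On the ethanol diet edgeR called 0 of the 73 between genotypes, where 0.712% of all genes were higher and 0.392% lower. At an unadjusted *P* under 0.05 there were 9, and the share of all genes there was not counted. DESeq2 called 4 of the 73, beside 1511 of all 14038 tested genes. The interaction was called for 12, of which 7 were positive and 5 negative, against 11.2% and 11.1% of all genes. These included *Polg2* (1.64 ± 0.27), *Mief2* (1.01 ± 0.27), *Sirt3* (0.99 ± 0.12), *Tfeb* (0.71 ± 0.17), *Timm44* (0.63 ± 0.10), *Timm50* (0.48 ± 0.11) and *Slc25a46* (0.41 ± 0.13). The 5 negative ones were *Pprc1* (-1.86 ± 0.22), *Pdk4* (-1.49 ± 0.40), *Tomm20* (-0.65 ± 0.14), *Yy1* (-0.53 ± 0.10) and *March5*, a ubiquitin ligase of the outer membrane (-0.38 ± 0.13). Their adjusted *P* values were 0.000503 to 0.0478. The number of called pathway genes moved by more than 1.5 times when single livers were left out. For ethanol in WT it was 1 to 3 without any 1 liver, for ethanol in *Ahr* HKO it was 9 without *Ahr* HKO control liver 2 and 10 without ethanol liver 3, and for genotype on the control diet it was 9, 6 and 8 without WT livers 1, 2 and 3 and 10 without *Ahr* HKO liver 1.

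For each member called in a pair of groups, the genes most like it were found by Pearson's r of log2 CPM over the 12 livers, among all tested genes. These were *Dgcr6*, *Cuta* and *Smyd2* for *Ppargc1a* (0.98, 0.97 and 0.96), *BC051226*, *Fancg* and *Tfeb* for *Ppargc1b* (0.97, 0.96 and 0.95), *Setd3*, *Nr6a1* and *Suds3* for *Esrra* (0.98 each), *Dnajc11*, *Serpina3n* and *Eif2b4* for *Nrf1* (0.97, 0.96 and 0.96), and *Hibch*, *Slc22a4* and *Tbc1d32* for *Mfn2* (0.97, 0.96 and 0.96). The 12 livers fall into 4 groups, so r is mostly a likeness of group levels. Of these 15 genes only *Tfeb* belongs to the lists of the machinery.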

How the data were processed

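The authors deposited whole-number read counts per gene, with FPKM and TPM values. How the authors made the FPKM from the reads is not given in the sources used here, and the ratio of FPKM to CPM of a gene varied between libraries. TPM, also the authors', was not used. The submitters' processing notes name FastQC 0.11.7, Trimmomatic 0.38, HISAT2 2.1.0, Bowtie2 2.3.4.1, StringTie 1.3.4d and mm10, with no settings, and the handling of reads shared between genes is not given in the sources used here. Groups came from the labels, which name no batch. Whether livers are independent animals rests on the labels, so *P* values measure the spread between these samples.

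Counts were filtered with filterByExpr over the 4 groups and tested with the quasi-likelihood test of edgeR 4.0.16 in R 4.3.3, with TMM factors and Benjamini-Hochberg adjustment over 14038 genes. Each pair of groups was fitted on its own 6 libraries, and the interaction on all 12. A gene was called at an adjusted *P* under 0.05. Numbers of genes at an unadjusted *P* under 0.05 stand without the share of all tested genes, which was not counted. CPM used the TMM factors of all 12 libraries. Ranges that do not overlap refer to CPM. All members were named, with up to 4 genes per pathway list and comparison by smallest adjusted *P*, and the 3 genes most like each called member. Scripts were tested on simulated counts. DESeq2 1.42.0, limma 3.58.1 on log2(FPKM + 1), other filters and scalings, a replicate block and leaving out each liver were alternatives. The members and lists were chosen with earlier results of these data known.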

Additional observations from a re-analysis of the deposited data

Results flagged for a closer look

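The diet effect differed between the genotypes for 6 members in a test of the difference itself (edgeR interaction term, all 12 livers, log2 scale, *Ahr* HKO minus WT). The difference was 0.93 for *Ppargc1a*, 2.61 for *Ppargc1b*, 1.06 for *Esrra*, 0.48 for *Mfn1*, 0.66 for *Mfn2* and -0.54 for *Nrf1*, with adjusted *P* of 0.00150 to 0.0321. Of all tested genes 11.2% had a positive and 11.1% a negative call. In the 12 fits without 1 liver, the call was kept in 4 for *Mfn2*, in 6 for *Nrf1* and in all 12 for the other members named. Under 9 other settings it was kept in 6 for *Nrf1* and in 8 each for *Mfn1* and *Mfn2*. For *Ppargc1b* and *Mfn1* the diet groups did not overlap in either genotype and lay in opposite order, as values only: of these 4 diet effects edgeR called that of *Ppargc1b* in *Ahr* HKO (adjusted *P* of the others 0.107, 0.160 and 0.0857), and 32.9% of all tested genes in WT and 49.8% in *Ahr* HKO had diet groups that did not overlap. For *Ppargc1a*, *Ppargc1b*, *Esrra*, *Nrf1* and *Mfn2* the *Ahr* HKO livers on the control diet stood apart from all other livers, above them for *Nrf1* and below them for the rest. Kupffer cell markers also differed between the diets in *Ahr* HKO, and 3 of 5 had a called, negative interaction. Their part in these differences was not tested.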

How the results depend on the processing

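Of the single-member values, 480 kept direction and side of the threshold under other settings, 22 reversed, 15 passed newly and 13 were lost, and without 1 liver these numbers were 317, 13, 2 and 28. For ethanol in WT, where edgeR called 1 member and 5 pathway genes, DESeq2 called 2 and 10, the 3 limma fits on quantile-normalized values 0 members each, limma on log2(FPKM + 1) 8 pathway genes, limma without quantile normalization 15, no filter 3 and a required FC above 1.5 called 2. With that FC, 3 members and 9 pathway genes were called for ethanol in *Ahr* HKO and 5 pathway genes for genotype on the control diet. How many of all genes passed with that FC was not counted. For ethanol in WT, edgeR called 1329 of all 14038 genes, DESeq2 2335, limma on quantile-normalized log2(FPKM + 1) 1325 and limma without quantile normalization 2037. A pseudocount of 0.1 gave 938, genes above 0 in every library 1270 of 13345, and no filter 1089 of 17220. For genotype on ethanol, DESeq2 called 2 members and 4 pathway genes, all 12 libraries in 1 fit 1 and 2, and limma without quantile normalization 3 pathway genes. Over all 14038 genes these fits called 1511, 575 and 501, against 155 in the main fit. Without 1 liver, members and pathway genes called were 0 and 1 to 3 for ethanol in WT, 4 to 5 and 9 to 15 for ethanol in *Ahr* HKO, 4 to 5 and 6 to 16 for genotype on the control diet, 0 and 0 for genotype on ethanol, and 4 to 6 and 9 to 13 for the interaction. Over all genes these fits called 367 to 1026, 2588 to 3792, 2630 to 3748, 7 to 189 and 2267 to 3084 in the same order. The cause of these moves was not tested.

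The values that reversed were not called by edgeR. Without quantile normalization these were *Nrf1* 0.064 and *Opa1* 0.024 for ethanol in WT, *Mfn1* -0.028, *Opa1* -0.069 and *Fis1* -0.082 for genotype on ethanol, and *Tfam* -0.16 and *Fis1* -0.13 for the interaction. That scaling moved the median of all genes to -0.13 for genotype on ethanol and -0.14 for the interaction. With upper-quartile scaling they were *Fis1* -0.0051 for ethanol in WT and *Dnm1l* -0.018 and *Fis1* -0.056 for genotype on the control diet. With limma on quantile-normalized values (pseudocount 1, 0.1, and 1 with genes above 0 in every library) they were *Fis1* -0.073, -0.074 and -0.068 for ethanol in WT, -0.086, -0.087 and -0.086 for ethanol in *Ahr* HKO and -0.014, -0.014 and -0.018 for the interaction, and *Nrf1* 0.069, 0.092 and 0.070 for genotype on ethanol. Without 1 liver the range crossed 0 for *Nrf1* (-0.12 to 0.051) and *Fis1* (-0.048 to 0.081) for ethanol in WT, *Dnm1l* (-0.027 to 0.16) and *Fis1* (-0.061 to 0.098) for genotype on the control diet, and *Nrf1* (-0.096 to 0.045) and *Mfn2* (-0.18 to 0.12) for genotype on ethanol. Over all genes, the called genes that were higher numbered 679 of 1329 for ethanol in WT, 100 of 155 for genotype on ethanol and 1576 of 3137 for the interaction, against 1631 of 2037, 78 of 501 and 810 of 3522 without quantile normalization, and 714 of 1511 for genotype on ethanol with DESeq2.

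The sample titles number the livers alike in each group, but the labels do not say that a number marks shared animals or days. In no comparison did all 3 pairs with the same title number correlate over 0.1 (-0.088 to 0.18). The sample descriptions carry other numbers, which were not used for pairs or blocks. The livers were not treated as pairs. For genotype on ethanol livers 1 and 2 correlated with their own number (0.18 and 0.13) and not with the other (-0.18 and -0.14), livers 3 did not (-0.012), and the block raised the calls over all genes from 155 to 245. With a replicate block, 0 members and 1 pathway gene were called for ethanol in WT, 5 and 14 for ethanol in *Ahr* HKO, 4 and 11 for genotype on the control diet, 0 and 0 for genotype on ethanol and 6 and 10 for the interaction. Over all 14038 genes the block called 517, 3005, 2999, 245 and 2745 in the same order. The 95% intervals printed beside uncalled members give the differences that 3 livers a group leave possible.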
